A study of Homo sapiens with 2 samples.

Results

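The peaks described here are all those that the deposited list places on human chromosome 15, chosen by the chromosome name alone, without regard to signal. They were 713 of the 20085 peaks in the list, of which 20072 lay on chromosomes 1 to 22 and X. The list came from NB4, an established human cell line of acute promyelocytic leukaemia with the PML-RARA fusion, profiled by CUT&Tag with an antibody against PML-RARA. NB4 was grown in RPMI medium with fetal bovine serum and with no treatment stated. The study had 1 group of 2 replicates, which the authors merged into 1 peak list, and whether these were separate cultures is not said. No control library, no second condition and no value per replicate was analysed here, so every value below is a description with no test, and the depth behind it is unknown.

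PML is a gene on the long arm of chromosome 15 that encodes the scaffold protein of PML nuclear bodies, and RARA, on chromosome 17, encodes a nuclear receptor that binds retinoic acid. In the translocation of acute promyelocytic leukaemia, chromosome 15 breaks within PML, the part toward the centromere stays with its own centromere and gains the end of RARA, and the part toward the telomere moves to chromosome 17. The fusion protein keeps the DNA-binding domain of RARA. In CUT&Tag an antibody directs a tethered transposase to cut and tag DNA close to the bound protein, so an antibody against a fusion of normal proteins may also report sites of its normal parts. Chromosome 15 is acrocentric: its short arm is mostly repeats, and its long arm opens with an imprinted and duplicated region.

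An hg19 gene model was at hand for a single gene of chromosome 15, MCTP2, which encodes a membrane protein with several C2 domains. Its promoters are shown because it is the only gene of the chromosome whose starts could be set against peaks on the same build. The 9 models of MCTP2 had 5 start sites on the plus strand between 94774801 and the gene's end at 95027181. The peak at chr15:94774123-94775484 lay over the starts at 94774801, used by 4 models, and 94774955, used by 1. It had a total signal of 16443, a maximum of 40 and a signal per base of 12.1, and it ranked 138 of 713 on chromosome 15 by total signal and first in 15q26.2. The starts at 94841430, 94899164 and 94899366 had no peak over them, and the peak nearest to them, at chr15:94830680-94831383 with a total signal of 4823, was 10047, 67781 and 67983 bp away. RefSeq lists 2 promoters of MCTP2, both on GRCh38.p14 and the plus strand, at chr15:94231311-94231610 and chr15:94355680-94355979, each 250 bases before and 50 bases after a start. Their starts are 124369 bp apart, and those of the hg19 models at 94774801 and 94899164 are 124363 bp apart. The promoters were linked to these hg19 starts by that near match of distances alone. Capitals mark CG dinucleotides.
MCTP2 first promoter: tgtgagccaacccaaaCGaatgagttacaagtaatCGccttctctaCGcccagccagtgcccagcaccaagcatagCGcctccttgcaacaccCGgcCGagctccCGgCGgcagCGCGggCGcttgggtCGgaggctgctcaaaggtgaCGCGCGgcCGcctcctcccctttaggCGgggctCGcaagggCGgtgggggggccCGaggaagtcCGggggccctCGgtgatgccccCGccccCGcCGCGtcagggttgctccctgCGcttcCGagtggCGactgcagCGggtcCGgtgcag
MCTP2 second promoter: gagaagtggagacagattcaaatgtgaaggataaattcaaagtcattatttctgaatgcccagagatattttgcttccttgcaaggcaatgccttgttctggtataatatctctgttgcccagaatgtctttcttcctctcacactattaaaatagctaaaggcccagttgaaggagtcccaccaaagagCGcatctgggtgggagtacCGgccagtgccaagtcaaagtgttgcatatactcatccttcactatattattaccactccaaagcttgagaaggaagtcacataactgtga
The first, linked to the start under the peak, held 31 CG dinucleotides and was 70% G and C. The second, linked to a start with no peak, held 2 and was 42% G and C. Over all 15842 protein-coding promoters of the table the median was 22 CG dinucleotides and 62.7% G and C. A single gene shows no rule about CG content and peaks.

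Neither MCTP2 promoter held the letters AGGTCA on either strand (AGGTCA or TGACCT), the core hexamer of a retinoic acid response element. That sequence stood in 1854 of the 15842 promoters (11.7%), taking the first listed start of each gene, and in 55 of 540 on chromosome 15 (10.2%). On chromosome 15 it was found in 43 of 360 promoters proximal to PML (11.9%) and in 12 of 180 distal to it (6.67%). Band 15q24.1 holds PML, but no promoter of PML was among the 34 of that band. The hexamer was found in 8 of those 34 and in 1 of the 22 promoters of 15q24.2. These are counts of letters in promoters on GRCh38.p14 and were not matched to peaks.

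For each peak the authors give a total signal, which is the signal summed over the peak and stands under the header width, and a maximum signal, and signal per base is the total divided by the length. All are in the authors' units. The 713 peaks had a median length of 856 bp (quartiles 653 to 1264, range 279 to 9363). Their median total signal was 6124 (3703 to 12797, range 2578 to 239575), and their median maximum was 22 (14 to 37, range 6 to 519). Median signal per base was 7.47 (5.45 to 11.1, range 2.91 to 42.6), against 7.53 (5.45 to 11.3) over all chromosomes. Together the peaks covered 815 kb, or 0.795% of the chromosome.

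Chromosome 15 lay in the middle of the chromosomes by most of these measures. It had 6.95 peaks per Mb over its 103 Mb, rank 11 of 23, where all chromosomes together had 6.61 and single chromosomes ran from 2.44 to 27.0. Over the 81.8 Mb left without the short arm, centromere and variable bands it had 8.71 peaks per Mb, rank 8, against 7.14 for all chromosomes. With 617 protein-coding genes it had 1.16 peaks per gene, rank 8, against 1.01. Its median signal per base ranked 15, within chromosome medians that spanned only 6.99 to 7.94. It held 3.55% of peaks, 3.44% of signal, 3.38% of sequence length and 3.09% of protein-coding genes. Of the other large acrocentric chromosomes, chromosome 13 had 2.65 peaks per Mb and chromosome 14 had 5.48, and chromosome 17, home of RARA, had 16.5 per Mb and 1.14 per gene. None of these ranks was tested.

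**Figure D1:**
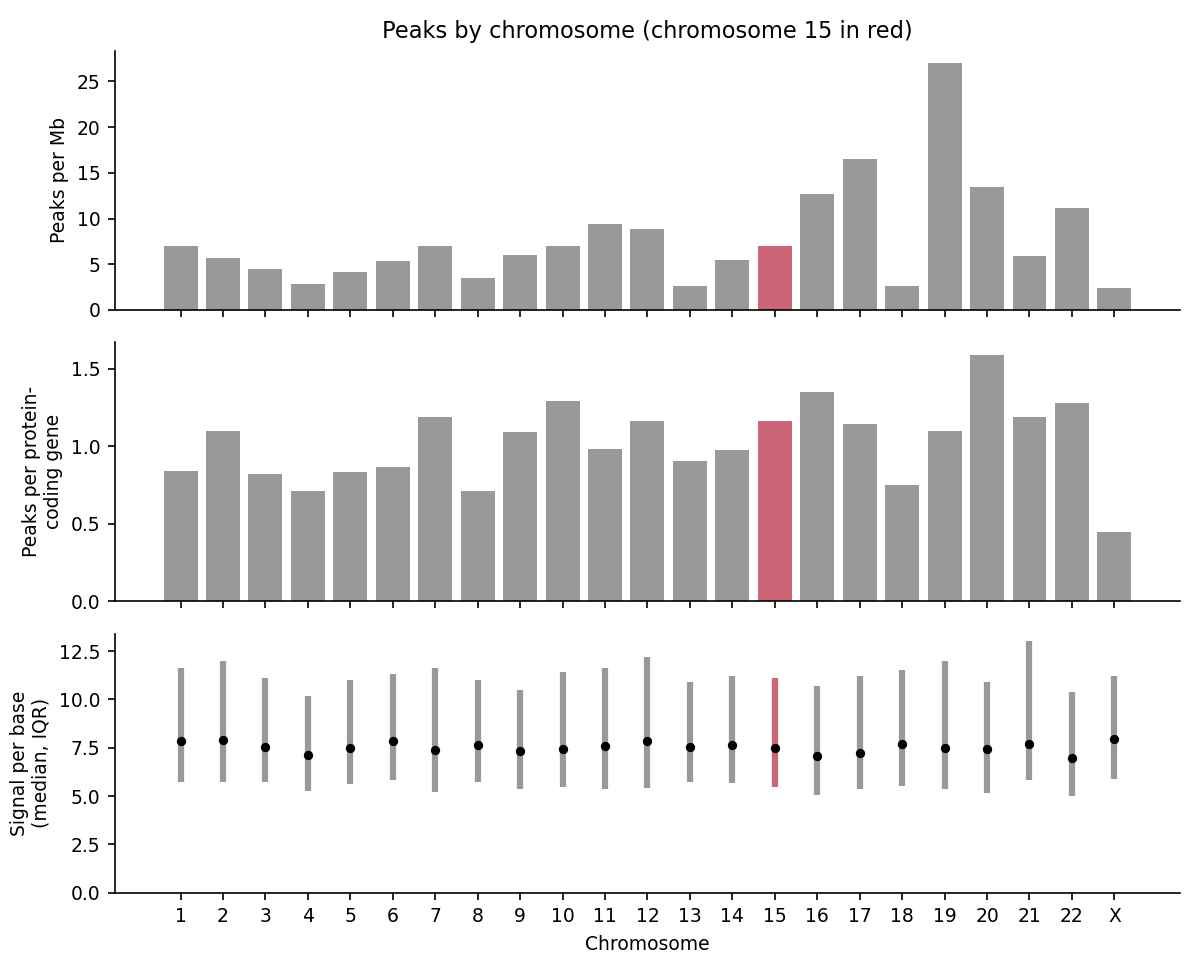
Peaks per Mb (top), peaks per protein-coding gene (middle) and signal per base in the authors' units (bottom; points are medians over peaks, bars join the quartiles) for chromosomes 1 to 22 and X. Chromosome 15, in red, stands at 6.95 peaks per Mb, 1.16 peaks per gene and a median of 7.47, inside the range of the other chromosomes in each panel.

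Chromosome 15 held strong peaks at close to the rate of the whole list. A total signal among the highest 10% of the list, that is 29657 or more, was reached by 10.0% of all peaks and by 74 of the 713 (10.4%, 95% Wilson interval 8.35 to 12.8, which covers counting error only). The nearest members on either side of that value had totals of 29699 and 29481. A signal per base of 17.5 or more was reached by 10.0% of all peaks and by 66 on chromosome 15 (9.26%). A maximum of 68 or more was reached by 10.2% of all peaks and by 71 here (9.96%). Each of these 3 counts lay near its background.

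Signal was concentrated in few peaks. The 71 peaks of highest total held 47.8% of the chromosome's signal, rank 3 of 23, where the matching share over all chromosomes was 46.5%, and the 7 strongest held 13.2%. Among peaks over 1 kb the longer ones had more signal per base. Peaks under 700 bp had a median of 6.72, those from 700 bp to under 1 kb 6.42, those of 1 to 2 kb 9.24, those of 2 to 4 kb 15 and the 16 of at least 4 kb 15.8. Over all chromosomes the classes of 2 to 4 kb and of at least 4 kb had 12 and 16.3. Spearman's rho between length and signal per base across the 713 peaks was 0.336 (0.315 over all chromosomes), given as a description since length enters the ratio and all peaks share the same libraries. The 16 longest were 2.24% of peaks and held 19.7% of signal.

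**Figure D2:**
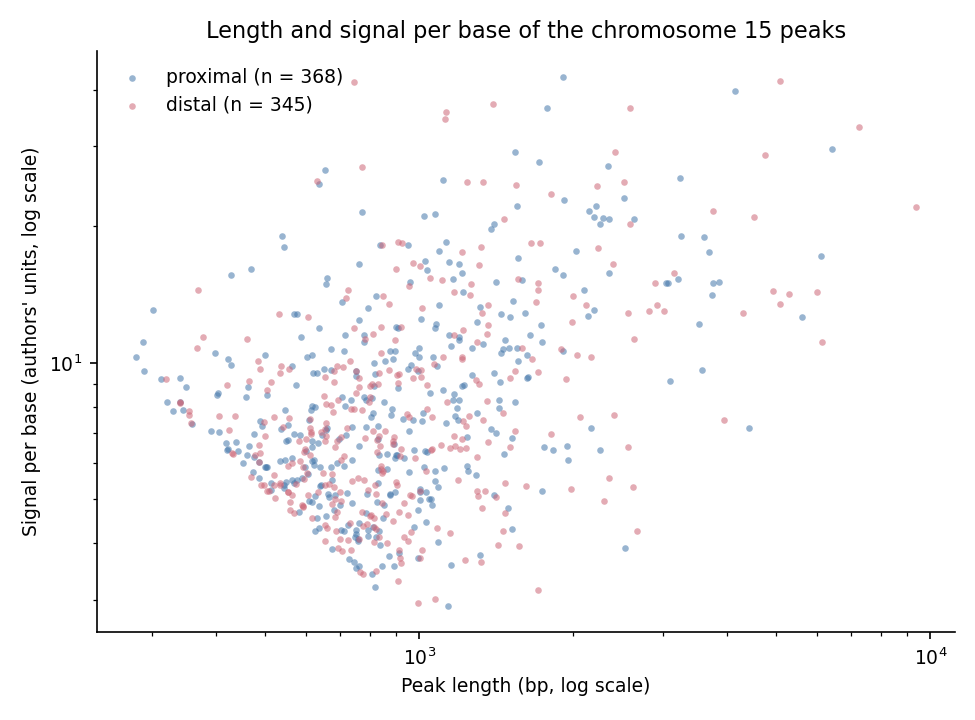
Length (bp, log scale) against signal per base (authors' units, log scale) of each chromosome 15 peak, with 368 peaks proximal (blue) and 345 distal (red) to the PML breakpoint region. Both sides fill the same cloud, the lower left edge follows the lowest total signal in the set, 2578, and the longest peaks, up to 9363 bp, lie in the upper part.

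In 1 Mb bins the peaks formed a few dense blocks separated by thin stretches. Across the 82 bins past the centromere the median was 5 peaks, against 2 over the 2828 bins of all chromosomes. Bins with 20 peaks or more made up 11.6% of all bins and 9 of the 82 on chromosome 15. Bins with no peak made up 36.0% of all bins and 19 of the 82 here (23.2%). With the empty ones, 36 of the 82 held 2 peaks or fewer. Since the median bin of all chromosomes held 2, bins this thin were not particular to chromosome 15. The 4 fullest bins held 195 peaks, which is 27.3% of the chromosome's peaks and 41% of its signal.

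The fullest bin ran from 75 to 76 Mb and held 74 peaks. Their signal summed to 1820539, or 19.1% of the chromosome's signal. The bin ranked 13 of 2828 bins by count and 5 by signal. The next, from 70 to 71 Mb, held 54 peaks with a summed signal of 1251793 (13.1%) and ranked 32 by count and 17 by signal. Those 2 bins alone held 32.3% of the signal and 18.0% of the peaks. The bin at 91 to 92 Mb held 34 peaks, that at 40 to 41 Mb 33, those at 74 to 75 and 41 to 42 Mb 32 each, that at 90 to 91 Mb 29, that at 31 to 32 Mb 26 and that at 78 to 79 Mb 24. The 2 fullest bins ended sharply: the bin after 70 to 71 Mb had 0 peaks, and the bin after 75 to 76 Mb had 8. Other blocks tapered: the bin after 41 to 42 Mb had 11 peaks, and the bins before and after 78 to 79 Mb had 18 and 12.

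**Figure D3:**
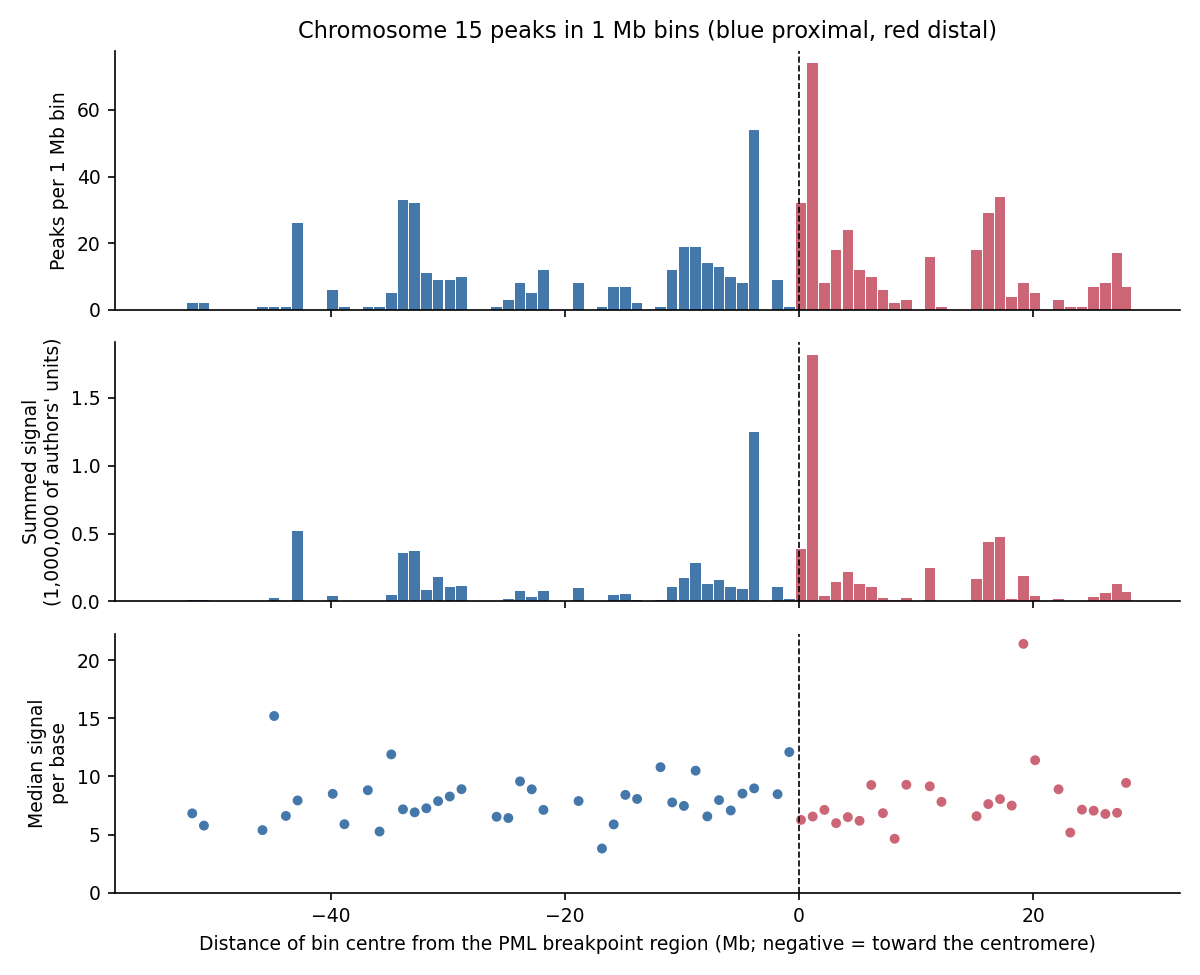
Peaks (top), summed signal on the scale printed at the axis (middle) and median signal per base (bottom, only bins with a peak) in 1 Mb bins of chromosome 15, by distance in Mb of the bin's centre from the PML breakpoint region, marked by the dashed line. Blue bins are proximal and red distal, and the first red bin contains the breakpoint region and 3 proximal peaks. The highest bar, just distal of the line, is the bin of 74 peaks, and the highest blue bar is the bin of 54.

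In the fullest stretch the median peak and the summed signal stood on different sides of the chromosome's values. The 2 Mb from 74 to 76 Mb had 106 peaks with a median signal per base of 6.40, below the chromosome's 7.47. Over all bases covered by peaks there, signal per base was 13.6, above the chromosome's 11.7. Its peaks covered 8.14% of the sequence, and 10 of the 16 peaks of at least 4 kb fell in it. The bin from 70 to 71 Mb had a median of 8.98 and 7.83% of its sequence covered. In contrast, the bin from 93 to 94 Mb held only 8 peaks, with a median of 21.4. Among them chr15:93374696-93375441 was 745 bp long with 41.5 per base, rank 3 on the chromosome, and chr15:93346825-93347951 had 35.7. The lowest value, 2.91, belonged to a peak of 1141 bp at chr15:40403371-40404512.

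The PML breakpoint region was set at 74.32 Mb, and peaks were split there by their midpoint. In RefSeq, PML spans 53.1 kb on the plus strand, so its start faces the centromere. The proximal part, 53.62 Mb from the end of the centromeric bands, held 368 peaks, or 6.86 per Mb. The distal part, 28.21 Mb to the telomere, held 345, or 12.2 per Mb, which is 1.78 times as many. Summed signal per Mb was 88632 proximally and 169002 distally, a ratio of 1.91. Over its whole length the proximal part had 399 protein-coding genes, or 7.44 per Mb, and the distal part 201, or 7.12 per Mb. Peaks per gene were 0.922 and 1.72, a ratio of 1.86. Whether gene density underlies the difference between the sides was not tested.

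Single peaks differed little between the sides, and by less than the quartiles of either. Median signal per base was 7.83 proximally (5.80 to 11.4) and 7.18 distally (5.33 to 10.7), a ratio of 0.917. Median total signal was 6445 and 5955, median length 856 and 857 bp, and median maximum 23 and 20. Of the 74 peaks in the list's highest 10% by total signal, 37 lay on each side.

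How far the sides differed varied with the window around PML. Within 250 kb of 74.32 Mb there were 3 proximal and 4 distal peaks. Within 1 Mb there were 3 proximal and 51 distal peaks, with summed signals of 9713 and 901543. Within 2 Mb there were 13 and 107, within 5 Mb 73 and 165, and within 10 Mb 143 and 186. Leaving out the 2 Mb next to the boundary on the distal side, a choice made after seeing the data, left 9.08 distal peaks per Mb, 1.32 times the proximal density, and a ratio of 1.10 for summed signal per Mb. With the proximal bin from 70 to 71 Mb left out as well, the ratios were 1.52 and 1.46. The windows of 1 Mb on either side of the boundary differed by 48 peaks. A difference of 48 peaks or more between adjacent 1 Mb bins occurred in 0.789% of 2787 pairs over all chromosomes, and in 2 of 81 pairs on chromosome 15. Those 2 were the edges at 76 Mb, from 74 to 8 peaks, and at 71 Mb, from 54 to 0. The bins lie on a fixed grid and the windows start at the boundary, so 0.789% does not measure how rare the difference at PML is. On the grid, the edge at 74 Mb went from 1 to 32 peaks.

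No peak lay over 74.32 Mb itself. The nearest on the proximal side was chr15:74286870-74287171, with a total signal of 3953, a maximum of 26 and 13.1 per base, 32829 bp away. Next to it lay chr15:74284483-74284943, with a total of 2880, and then chr15:74227867-74228410, also with 2880. All 3 were under the median total of the chromosome. Beyond them no peak was listed until chr15:73075218-73076947, with a total of 21003, 1243053 bp from the boundary.

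On the distal side the first peaks were weak as well. The nearest was chr15:74415504-74416077, with a total of 3098, 95504 bp away, followed by peaks at chr15:74419797-74420409 with 3839, chr15:74428401-74428741 with 2767 and chr15:74494985-74495699 with 4443. The first above the median total was chr15:74583438-74584336, with 10057. The dense block thus did not begin at the boundary. In steps of 100 kb, 12 of the 20 proximal steps within 2 Mb were empty and none held 5 peaks, whereas 1 of the 20 distal steps was empty and 8 held 5 or more. The first step with 5 peaks began 300 kb distal of the boundary, and the fullest, with 17, ran from 1100 to 1200 kb.

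**Figure D4:**
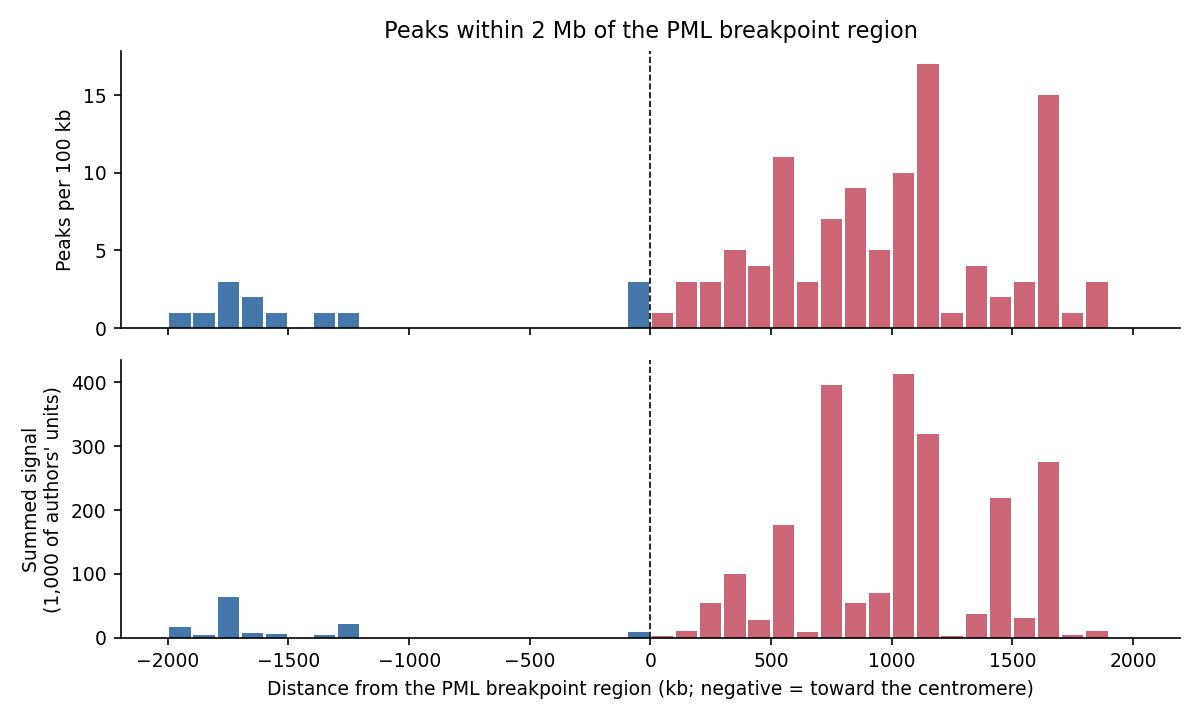
Peaks (top) and summed signal in units of 1000 (bottom) in 100 kb steps within 2 Mb of the PML breakpoint region (dashed line), blue proximal and red distal. The distal steps climb to 17 peaks at 1100 to 1200 kb, and 12 of the 20 proximal steps are empty.

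The band that holds PML, 15q24.1, was split the same way. Its proximal 1.62 Mb held 6 peaks, or 3.70 per Mb, with a summed signal of 41485, and its distal 0.88 Mb held 46 peaks, or 52.3 per Mb, with 831235. Median signal per base was 6.60 and 6.44. Genes were also denser in its distal stretch, with 22.7 protein-coding genes per Mb against 10.5. Peaks per gene still differed, with 0.353 proximally and 2.30 distally. In gene order RefSeq places 17 protein-coding genes of the band before PML, among them NEO1, a netrin receptor, HCN4, a pacemaker channel, CD276, an immune checkpoint ligand, and LOXL1, which crosslinks elastin. It places 20 after PML, among them STRA6, the membrane receptor for retinol-binding protein, CYP11A1, which makes pregnenolone from cholesterol, SEMA7A, a semaphorin of blood cells, CYP1A1 and CYP1A2, targets of the aryl hydrocarbon receptor, and CSK, the kinase that restrains SRC-family kinases. Which of these genes lie at which peak was not analysed here, since the gene table is on another build.

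The strongest sites were few and close together. Of the 10 peaks of highest total signal, 7 were distal, 5 lay in 15q24.1 and 15q24.2, and 2 in 15q23, and the 10 held 16.1% of the signal. Of all 713 peaks, 48.4% were distal, 7.29% lay in 15q24.1, 8.84% in 15q24.2 and 11.2% in 15q23. Among the 100 strongest of the list stood 5 of the 10. The first was chr15:75333053-75340296 in 15q24.2, 7243 bp long, with a total of 239575, a maximum of 410 and 33.1 per base, rank 37 of the list. The next, chr15:75742592-75747668 in the same band, was 5076 bp long with a total of 211720, a maximum of 224 and 41.7 per base. The longest peak of the chromosome, chr15:75068971-75078334 in 15q24.1, had a total of 206540 but a maximum of only 102 and 22.1 per base. A gap of 237 bp divided it from chr15:75078571-75083328, with a total of 136659, so that the pair held 343199.

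In 15q23, chr15:70782640-70789052 had a total of 189784 and a maximum of 519, the highest maximum on the chromosome and rank 10 of the list. It stood 109 bp from chr15:70778384-70782531, with a total of 165098, a maximum of 384 and 39.8 per base, and the pair held 354882, more than any single peak of chromosome 15. Both belonged to a run of 15 peaks from 70754627 to 70802670, with no gap over 10 kb, which held 6.74% of the chromosome's signal and ranked 8 of 11236 runs and single peaks of the list by summed signal. Its first peak, chr15:70754627-70756536, had the highest signal per base of chromosome 15, 42.6. The run was uneven: its 15 totals ran from 2627 to 189784 with a median of 13103, its 3 strongest peaks held 68.0% of its signal, and peaks covered 60.9% of its 48.0 kb.

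The other 4 sites of the top 10 lay in 4 bands. In 15q13.3, chr15:31554848-31560950 was 6102 bp long with a total of 104929 and only 17.2 per base. In 15q26.1, chr15:91359792-91364319 had a total of 94930. In 15q25.3, chr15:85872684-85875272 had a total of 94424 and a maximum of 268, and it was the only one of the 10 with no other peak within 10 kb. In 15q24.2, chr15:75964782-75970788 had a total of 85604 spread over 6006 bp, or 14.3 per base. Among peaks of at least 1 kb, the next highest signals per base were 37.2 at chr15:74837831-74839228 in 15q24.1 and 36.5 at chr15:43541001-43542778 in 15q15.2.

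Neighbouring peaks were common. A neighbour within 10 kb was found for 61.4% of all peaks and for 424 on chromosome 15 (59.5%, 95% Wilson interval 55.8 to 63.0). That interval treats peaks as independent, whereas both peaks of a close pair are counted, so it is likely too narrow. The share was 55.2% proximally, 203 peaks, and 64.1% distally, 221 peaks. Runs of 3 or more peaks with gaps of at most 10 kb numbered 1735 among the 11236 runs and single peaks of the list. The share of all peaks or signal in such runs was not computed, so the chromosome's shares have no background here. On chromosome 15 these runs numbered 63 and held 306 peaks, 42.9% of its peaks and 56.9% of its signal. The longest by count had 17 peaks over 71 kb from 75437532 to 75508580 in 15q24.2, with a summed signal of 318389, against 343199 in the pair in 15q24.1, and no peak of it was above 70879. Runs of 15 peaks from 31617485 to 31698202 in 15q13.3, of 13 from 91359792 to 91429667 in 15q26.1 and of 13 from 77276095 to 77327537 in 15q24.3 followed, with summed signals of 258335, 246110 and 121412.

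At the other end, peaks over 100 kb from any other made up 8.08% of all peaks and 57 of the 713 (7.99%), 39 proximal and 18 distal, with 4.30% of the signal. Their median signal per base, 7.26, was close to the 7.45 of peaks in runs, and their median total was 4989 against 7302. The strongest of them, chr15:43802385-43803788, had a total of 28379. Gaps of over 1 Mb between neighbouring peaks numbered 17, while the median gap was 17.6 kb. The longest, 4.95 Mb, ran from 23811782 in 15q11.2 to 28759903 in 15q13.1, and the next, 2.73 Mb, lay within 15q25.3. The first peak started at 22697916, and the last ended 10.3 kb from the end of the chromosome.

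Genes could be set beside peaks by cytogenetic band, matched by name between hg19 for peaks and GRCh38 for genes. All 27 bands of 15q outside the centromere matched with lengths that differed by at most 10%. Bands of no or the lightest Giemsa staining, 19 in number and called pale here, held 600 peaks, or 12.1 per Mb and 1.34 per protein-coding gene. The 8 darker bands held 113, or 3.51 per Mb and 0.739 per gene. The same split was not computed for the other chromosomes, so whether it is particular to chromosome 15 is not known. The densest band was 15q22.33, only 0.2 Mb long, with 11 peaks, or 55 per Mb, rank 7 of 784 bands of all chromosomes. Its only protein-coding gene is SMAD3, a transducer of TGF-beta signals, and its strongest peak was chr15:67381222-67386819 with a total of 70648. Next came 15q24.2 with 63 peaks, or 45 per Mb, rank 14, and 2.74 peaks per gene, and 15q15.1 with 72 peaks, or 26.7 per Mb, rank 51. The most peaks, 91, lay in 15q26.1, with 13.3% of the signal, and the most signal, 16.3%, in 15q23 with 80 peaks.

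**Figure D5:**
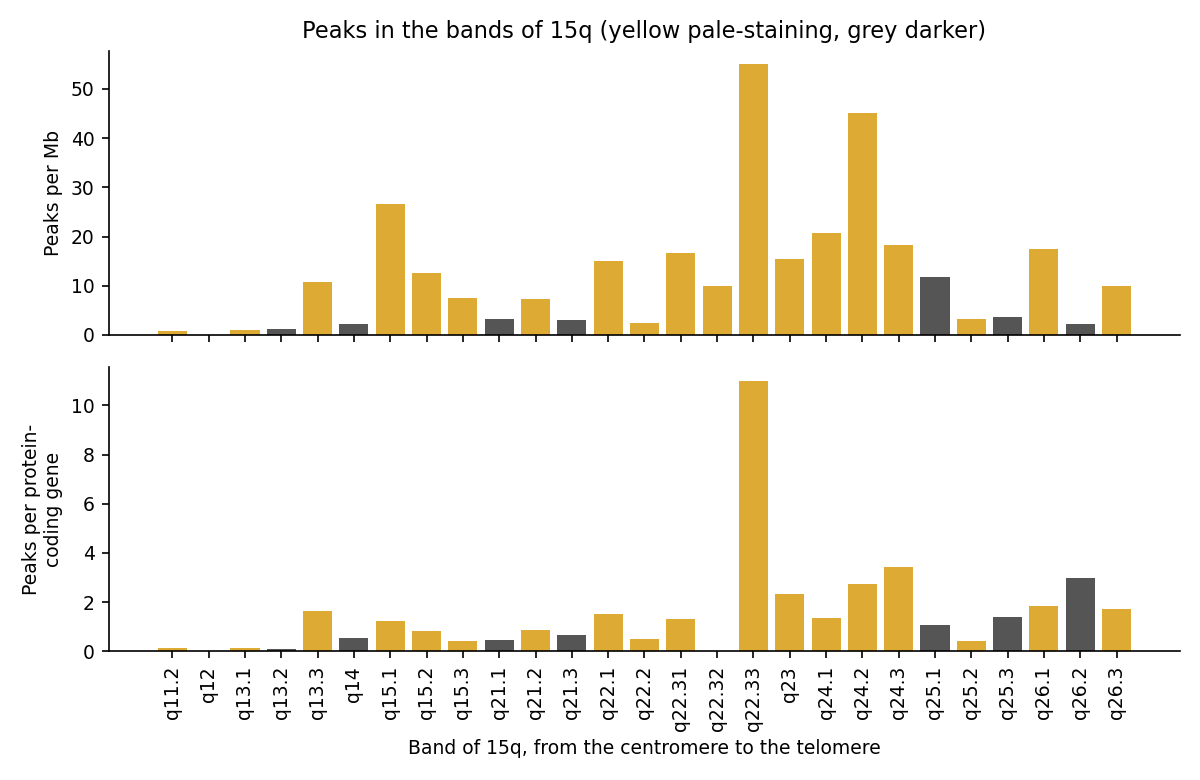
Peaks per Mb (top) and peaks per protein-coding gene (bottom) in the 27 bands of 15q from centromere to telomere, pale-staining bands in yellow and darker ones in grey. The bars for 15q22.33, with 1 gene, and 15q24.2 are the highest at 55 and 45 peaks per Mb. In the lower panel 15q22.32, which has no protein-coding gene, is drawn at 0.

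The imprinted and duplicated region near the centromere was nearly free of peaks up to 31 Mb. How well reads could be placed in its duplicated sequence was not examined here. Its listed genes fell in 4 bands, whose median was 0.855 peaks per Mb, against 9.92 over the 27 bands. Band 15q12, with ATP10A, had 0 peaks in 2.4 Mb. Band 15q11.2, with SNRPN, a splicing gene expressed from the paternal copy, and UBE3A, a ubiquitin ligase, had 4 in 5.0 Mb, or 0.800 per Mb. Band 15q13.1, with OCA2 and HERC2, had 2. From 20.70 to 31 Mb there were 7 peaks in all, with 0.581% of the chromosome's signal. Band 15q13.3, which holds CHRNA7 and TRPM1, differed from its neighbours with 26 peaks, or 10.8 per Mb, and 5.47% of the signal, all of it between 31 and 32 Mb.

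The 22 listed myeloid and signalling genes fell in 11 bands with a median of 16.6 peaks per Mb (2.31 to 55), and 9 of the 11 were above the chromosome's 8.71. Over all 27 bands 14 were above it. The densest bands of this list were 15q22.33, with SMAD3, at 55 per Mb, 15q15.1, with PLCB2, at 26.7, and 15q24.1, with CSK, at 20.8. Band 15q26.1 had 17.5 per Mb. It holds ANPEP, the myeloid surface peptidase CD13, FES, a myeloid tyrosine kinase, and IDH2, a mitochondrial dehydrogenase mutated in some leukaemias. Band 15q24.3, with PSTPIP1, a cytoskeletal adaptor of blood cells, had 18.2 per Mb and 3.44 per gene, and 15q22.31, with DAPK2, SMAD6 and MAP2K1, had 16.6. Band 15q23, with TLE3 and PIAS1, had 15.4. Band 15q25.1, with CTSH, a lysosomal protease, BCL2A1, an inhibitor of apoptosis, and IL16, had 11.8. Band 15q26.3, with MEF2A and IGF1R, had 9.92. Thin ones were 15q14, with RASGRP1, SPRED1, THBS1 and MEIS2, at 2.31, and 15q21.2, with HDC, at 7.35.

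The 8 retinoid genes and related receptors fell in 8 bands with a median of 10.9 peaks per Mb, and 5 of the 8 were above 8.71. STRA6 lay in 15q24.1 at 20.8 per Mb, RLBP1, a retinal carrier of the eye, in 15q26.1 at 17.5, and NR2E3, a photoreceptor nuclear receptor, in 15q23 at 15.4. CRABP1, a retinoic acid carrier, lay in 15q25.1 at 11.8, and ALDH1A3, which makes retinoic acid, in 15q26.3 at 9.92. Its relative ALDH1A2 lay in 15q21.3 at 3.06, the orphan receptor RORA in 15q22.2 at 2.50, and NR2F2, an orphan receptor of the COUP-TF family, in 15q26.2 at 2.14. The 19 genes of the PML neighbourhood fell only in 15q24.1 and 15q24.2.

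For other cell types the densities were mixed. The bands of the muscle genes ACTC1 and TPM1 had a median of 2.41 peaks per Mb. LIPC, a lipase of hepatocytes, lay in a band at 3.06, and the cartilage gene ACAN shared the dense 15q26.1. The bands of the 3 melanocyte genes had a median of 3.19 (0.909 to 10.8), with 1 above 8.71, which was 15q13.3 with TRPM1. The 4 bands of 6 housekeeping genes, such as B2M and PKM, had a median of 9.29, with 2 above 8.71. A band holds from 0 to 58 protein-coding genes, so its density is no measurement of a listed gene, and whether gene density underlies these differences was not tested.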

How the data were processed

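CUT&Tag libraries of NB4 cells were made with a commercial kit and sequenced in pairs on a MiSeq, as the labels' protocols state. The submitters' processing notes name hg19, SEACR (a peak caller), Bowtie2, Trimmomatic, bedtools and SAMtools. The versions, the SEACR threshold, a control track and the merging method were not given in the sources used here. A merged list of SEACR peaks was deposited, in which the authors give each peak a total and a maximum signal, here the column headed width and that headed peak. No scaling of this signal to depth is stated, and a merged list shows no spread between replicates. Positions are printed as deposited, and starts may count from 0.

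Peaks were counted by midpoint with Python 3.11.15, pandas 2.3.3 and numpy 2.4.6, and the counting steps were tested on simulated data. Cytogenetic bands came from circlize 0.4.16 and the MCTP2 models from GenomicFeatures 1.54.1 under R 4.3.3. Gene names, gene order and promoters came from RefSeq tables on GRCh38.p14, and no coordinate was converted between builds. PML, genes at the strongest peaks where a table of hg19 placed them, and genes of lists placed by band were named. MCTP2, NEO1, HCN4 and CD276 lie outside this rule and were chosen after the values were seen. The list of neuronal genes is not reported here. The members and lists were chosen with earlier results of these data known. Alternatives varied bin size and offset, boundary, denominator, signal measure, a minimum total signal, merging and neighbour distance.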

Additional observations from a re-analysis of the deposited data

How the results depend on the processing

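In the alternatives given here, the ratios of chromosome 15 to all chromosomes and of distal to proximal kept their side of 1. In smaller windows medians did not: within 1 Mb of the boundary, with 3 proximal peaks, the distal over proximal ratio of median signal per base was 1.07 and that of median total signal 1.99, and within 2 Mb the latter was 1.39. With usable length as the denominator the density ratio rose from 1.05 to 1.22. The distal over proximal ratio of peaks per Mb, 1.78, became 1.41 with the boundary 1 Mb toward the telomere, 1.30 within 10 Mb on either side, 2.47 with the proximal part counted from base 1, 1.32 without the 2 Mb next to the boundary on the distal side, and 1.52 without those and the bin from 70 to 71 Mb, both chosen after seeing the data. The ratio of summed signal per Mb, 1.91, became 1.90 with peaks at or above the list's median total, 1.81 and 1.37 with the boundary 1 Mb toward the centromere and the telomere, 1.29 within 10 Mb, 1.79 without the 5 strongest peaks of each side, 1.10 without the same 2 Mb and 1.46 without those and the same bin. The ratio of median signal per base, 0.917, became 0.973, 0.913, 0.937 and 0.821 under the first 4 of those settings, and 0.870 and 0.924 for maximum and total signal.

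The fullest bin, 74 peaks, held 47 with bins of 0.5 Mb and 39 counting peaks at or above the median total, and started at 75 Mb in both. Empty bins rose from 19 to 33 with those peaks alone. The share of peaks with a neighbour became 49.4% within 5 kb, 67.7% within 20 kb and 49.0% after merging peaks within 1 kb, where all chromosomes had 50.5%, 72.2% and 51.4%. The share of signal in the strongest 10% of peaks, 47.8%, became 50.3% after merging. The 10% of peaks of highest maximum held 35.4% of the summed maxima, which is another measure than the share of total signal. The other 11 of 38 values stayed within the counting interval of the main value, or within 1.5 times it for counts. Among these 11 was the fullest bin of 2 Mb, with 106 peaks, so the rule for counts took no account of bin width. No paired analysis was possible because the study has 1 group and its replicates are merged in 1 list. For the same reason leaving out each replicate was not run. Without depth, a control library or an hg19 annotation, signal cannot be set against background, and peaks cannot be assigned to genes other than MCTP2.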
